A study of Mus musculus with 11 samples.

Results

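Open chromatin was examined at the loci of 8 mouse cadherin genes, Cdh1, Cdh2, Cdh3, Cdh4, Cdh6, Cdh7, Cdh11 and Cdh13, in sorted esophageal cells. The intervals of 11 ATAC-seq lists were merged into 124941 regions, and 111956 of these had their midpoint in or within 100 kb of a protein-coding gene body. The cadherin loci are the 146 regions whose nearest gene body was that of a listed gene, with 53 at Cdh13, 27 at Cdh4, 22 at Cdh1, 15 at Cdh11, 13 at Cdh3, 8 at Cdh2, 7 at Cdh6 and 1 at Cdh7. A region was counted as occupied in a library whose list had an interval overlapping it by at least 1 bp. The number of occupied regions per locus was the measure compared. It says how many sites were called open, not how strong any of them was, and not whether the gene was transcribed. Nearest position does not show that a region acts on that gene.

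ATAC-seq marks accessible DNA with a transposase that inserts sequencing adapters. The libraries fall into groups of 3 SmoM2-Sox9cKO, 3 SmoM2, 2 Embryo and 3 WT. SmoM2-Sox9cKO cells came from Krt5-SmoM2-Sox9fl/fl mice and SmoM2 cells from Krt5-SmoM2 mice of strain CD1, both sorted for high EpCam. Embryo cells came from the esophagus of Krt8YFP embryos at embryonic day 13 and were sorted on YFP. WT cells came from wild type CD1 mice and were sorted for low EpCam. SmoM2 encodes a constitutively active Smoothened, which transduces Hedgehog signals, Krt5 marks the basal layer of stratified epithelia, Sox9 is a transcription factor of many progenitor cells, and EpCAM is an epithelial adhesion protein. SmoM2-Sox9cKO and SmoM2 share the SmoM2 transgene, and no label says how it is driven, what age the non-embryonic mice had, whether animals were pooled, or what strain the SmoM2-Sox9cKO mice were. Genotype and EpCam gate cannot be told apart in comparisons with WT.

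Cadherins are calcium-dependent adhesion proteins that bind the same or a related cadherin on the neighbouring cell. The classical members tie the membrane to actin through catenins bound to their cytoplasmic tails. E-cadherin (Cdh1) holds epithelial sheets together, P-cadherin (Cdh3) is found with it in the basal layer of stratified epithelia, N-cadherin (Cdh2) is typical of neural and mesenchymal cells, and R-cadherin (Cdh4) was first described in the retina. Cdh6, Cdh7 and Cdh11 are type II cadherins, with Cdh6 known from the developing kidney, Cdh7 from migrating neural crest and Cdh11 from mesenchyme and osteoblasts. Cdh13 (T-cadherin) is neither classical nor type II. It has no cytoplasmic tail and is held in the membrane by a lipid anchor.

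The RefSeq promoter table (GRCm38.p6) held windows for Cdh6 and Cdh7 among the 8 genes. Shown are the 250 bases before a start in that table, for the window of each gene that a region overlapped. They are shown because the 2 regions differed in how many libraries occupied them. Both windows lay inside the gene bodies (Cdh6 chr15:13028699-13176407, Cdh7 chr1:109982237-110145272), so neither precedes the start of the body. The Cdh6 window (chr15:13173676-13173925, minus strand) lay in a region occupied in 9 of 11 libraries. The Cdh7 window (chr1:109983052-109983301, plus strand) overlapped in most of its length a region occupied in 1 of 11, WT replicate 2. Searches on both strands covered CACCTG (the E-box bound by Snail and ZEB repressors), ACAAT (the SOX core), GACCACCCA (GLI) and TGANTCA (AP-1). None of these letters occurred in either window, so neither line, printed 5′ to 3′, holds capitals, and nothing is drawn from this about the factors. The table held 2 other Cdh7 windows, chr1:109982650-109982899 and chr1:109983473-109983722, which no region overlapped, and each held 1 E-box.
Cdh6: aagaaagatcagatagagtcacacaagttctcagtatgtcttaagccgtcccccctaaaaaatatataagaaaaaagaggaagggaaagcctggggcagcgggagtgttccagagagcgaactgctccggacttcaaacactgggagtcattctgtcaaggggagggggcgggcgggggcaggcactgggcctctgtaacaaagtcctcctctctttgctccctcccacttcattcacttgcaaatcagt
Cdh7: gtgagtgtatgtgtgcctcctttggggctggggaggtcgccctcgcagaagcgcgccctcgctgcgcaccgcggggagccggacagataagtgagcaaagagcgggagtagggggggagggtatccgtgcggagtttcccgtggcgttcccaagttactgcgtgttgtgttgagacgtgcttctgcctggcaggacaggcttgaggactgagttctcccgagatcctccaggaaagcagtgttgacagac
Among 32619 windows of the same length, 17.3% held the E-box, 27.3% the SOX core, 0.227% the GLI letters and 6.78% the AP-1 letters. The Cdh6 window had 51.2% G and C and 6 CG dinucleotides, and the Cdh7 window 61.6% and 17, beside medians of 52.4% and 6 over all windows.

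The lists of the 9 non-embryonic libraries held 69026 to 87910 intervals on chromosomes 1 to 19 and X, and the Embryo lists 24902 and 14255. Read depth is unknown, and in bulk DNA a region open in few cells and a region weakly open in many cannot be told apart. Intervals at 4 Y-linked genes numbered 8, 10 and 0 in SmoM2-Sox9cKO, 9, 9 and 9 in SmoM2, and 5, 0 and 0 in WT, so 2 of 3 SmoM2-Sox9cKO, 3 of 3 SmoM2 and 1 of 3 WT libraries had them. Loci of epithelial markers held regions in all 9 libraries, among them Krt5 (2 to 4), Krt14 (4 to 6), Trp63 (28 to 41) and Epcam (9 to 15). Marker loci of other cell types also held regions. The summed counts in SmoM2-Sox9cKO, SmoM2 and WT were 74 to 75, 64 to 76 and 58 to 70 over 10 endothelial genes, 25 to 29, 23 to 24 and 23 to 28 over 10 fibroblast genes, 15 to 23, 13 to 20 and 20 to 23 over 8 muscle genes, 22 to 29, 21 to 24 and 22 to 28 over 9 glial and neural genes, and 12 to 16, 11 to 16 and 7 to 12 over 7 immune genes. In SmoM2 against WT, loci called higher and lower numbered 2 and 1 of 10 tested (endothelial), 1 and 2 of 6 (fibroblast), 0 and 1 of 5 (muscle), 1 and 1 of 7 (glial and neural) and 1 and 0 of 5 (immune). Over all tested loci in this comparison, 5.2% were called higher and 5.75% lower. Lum, Tagln, Myf5 and Lyz2 had no region in any of the 9 libraries. Their part in the cadherin results was not tested.

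Relative to gene length, the epithelial pair stood far above the other cadherins in each non-embryonic group. The pair also has the shortest bodies, 46.1 kb at Cdh3 and 66.9 kb at Cdh1, beside 147.7 to 1184.9 kb at the others. Other genes of like length were not compared, and the part of length was not tested. In SmoM2, the density of occupied regions inside the gene body was 20.9 ± 1.5 per 100 kb at Cdh1 and 12.3 ± 1.25 at Cdh3 (mean ± SD, n = 3, here and below). It was 4.13 ± 0.753 at Cdh11, 3.07 ± 0.433 at Cdh13 and 3.06 ± 0.219 at Cdh4, and 0.908 at Cdh2, 0.903 ± 0.391 at Cdh6 and 0 at Cdh7. In WT the density was 16.9 ± 1.73 at Cdh1 and 10.1 ± 1.25 at Cdh3, then 1.97 ± 0.579 at Cdh4 and 1.49 ± 0.049 at Cdh13. Cdh2 (0.756 ± 0.262), Cdh6 (0.451 ± 0.391), Cdh11 (0.435 ± 0.376) and Cdh7 (0.204 ± 0.354) followed. Cdh11 thus stood next after Cdh3 in SmoM2 and next to last in WT. Below Cdh3, the libraries of neighbours in either order overlapped, except for the steps from Cdh4 to Cdh2 and from Cdh6 to Cdh7 in SmoM2 and from Cdh13 to Cdh2 in WT.

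**Figure D1:**
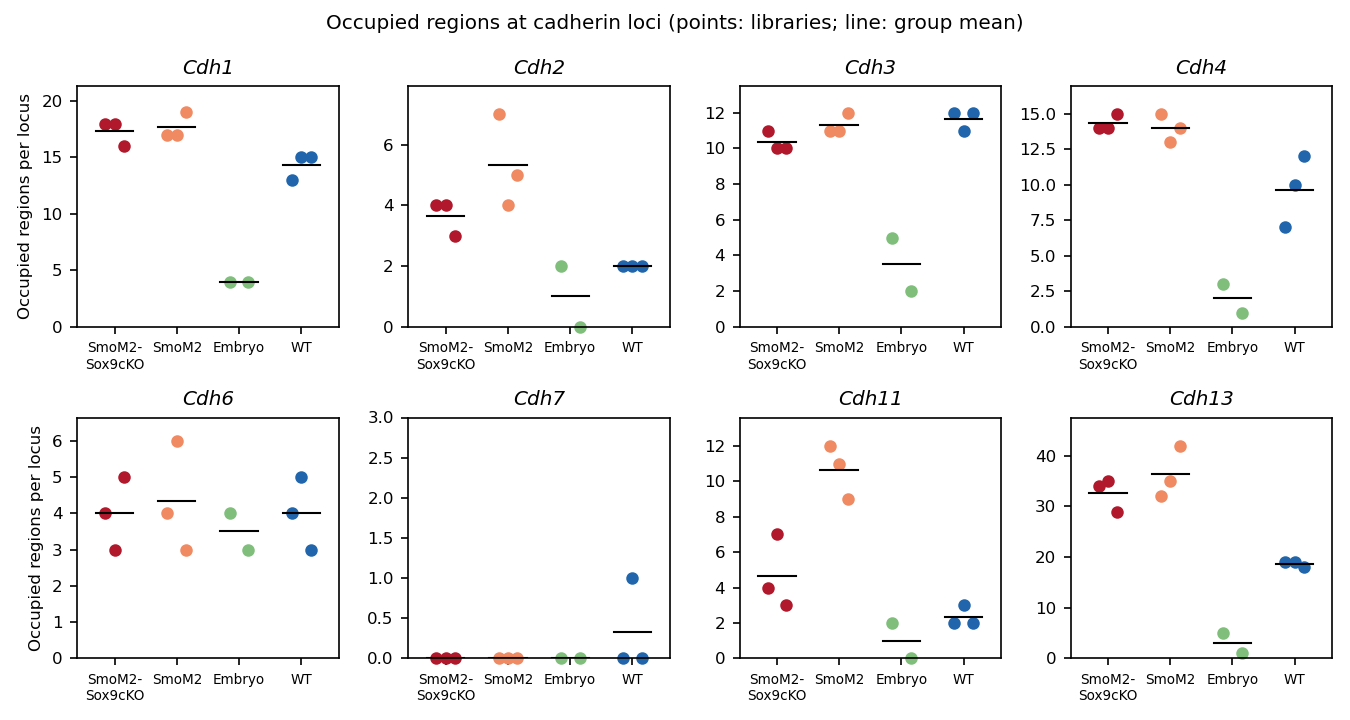
Occupied regions per locus (vertical axis, number of regions) in each library of SmoM2-Sox9cKO, SmoM2, Embryo and WT, with points for libraries and lines for group means. Cdh1, Cdh2, Cdh4, Cdh11 and Cdh13 have every SmoM2 library above every WT library, though Cdh1 and Cdh4 did not pass the test. Cdh3 and Cdh6 overlap between these groups.

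The comparison of SmoM2 with WT asks how the chromatin of esophageal cells differs when Hedgehog signaling is switched on. Of the 7 cadherin loci tested, Cdh11, Cdh2 and Cdh13 held more occupied regions in SmoM2 and none held fewer (limma, Benjamini-Hochberg adjusted p under 0.05 over 15365 loci). Over all loci, 5.2% (799) were called higher and 5.75% (884) lower, and with no scaling to list totals 764 and 341. The median log2 change was 0.42 over the 7 cadherin loci and -0.12 over all loci. The members were chosen with earlier results of these data known, so their contrast with all loci is a description. No locus test could be made at Cdh7, which fell below the filter of a mean of 1 occupied region. Nothing in the labels ties replicates to different animals, and the p-values reflect the scatter among these libraries, which may be technical.

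E-cadherin and P-cadherin, the epithelial pair, did not pass. Cdh1 held 17, 17 and 19 occupied regions in SmoM2, against 13, 15 and 15 in WT. The groups did not overlap, but the log2 change was 0.17 (SE 0.06, adjusted p = 0.126). Cdh3 held 11, 11 and 12 in SmoM2, against 12, 11 and 12 in WT, and these groups overlapped (log2 change -0.16, SE 0.09, adjusted p = 0.298). The genes are neighbours on chromosome 8, with Cdh3 at chr8:106510852-106556911 and Cdh1 at chr8:106603350-106670247. In the gap of 46.4 kb between them lay 8 regions, 5 nearest to Cdh3 and 3 to Cdh1, of which 5 were occupied in all 9 non-embryonic libraries. Regions over the low-coordinate ends of both bodies, chr8:106510298-106512019 at Cdh3 and chr8:106602928-106605057 at Cdh1, were occupied in all 11 libraries.

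**Figure D2:**
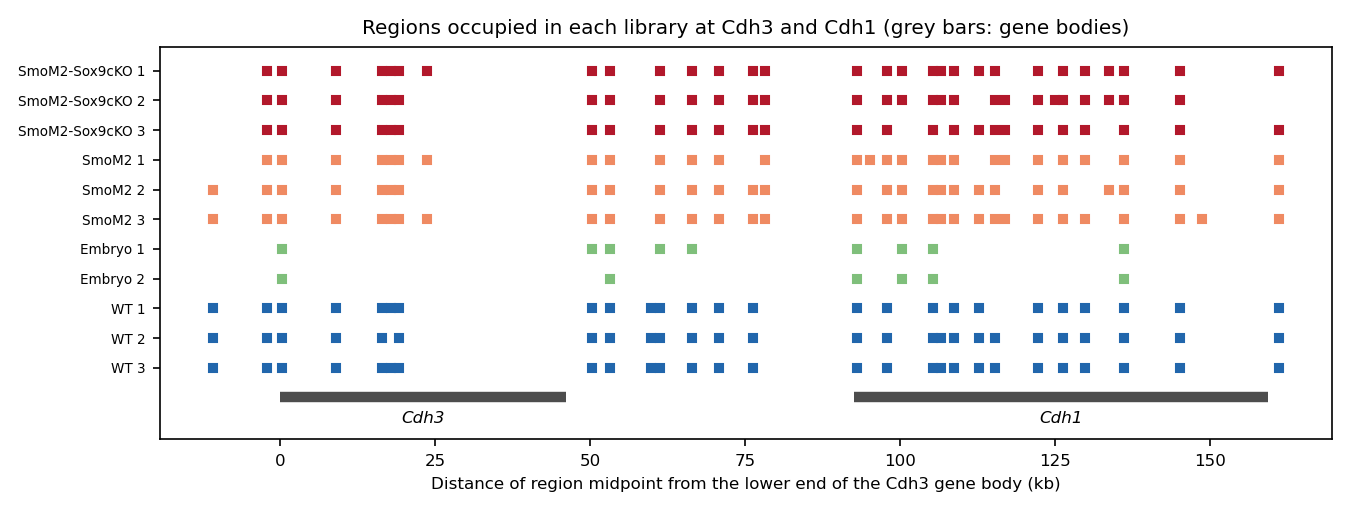
Regions occupied in each library (rows, SmoM2-Sox9cKO at the top and WT at the bottom) along the Cdh3 and Cdh1 genes, by distance of the region midpoint from the lower end of the Cdh3 body in kb. Most squares line up through the 9 non-embryonic rows, and the Embryo rows keep few of them.

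Although the totals were close, single regions at the pair differed in both directions. A region 14324 bp outside the Cdh1 body, chr8:106588521-106589532, was called in every SmoM2 library and in no WT library, and ranked at a median percentile of 67.5 by the authors' −log10 p within the SmoM2 lists. The other region gained at Cdh1, chr8:106610882-106611344 inside the body, was also occupied in both Embryo libraries. In the gap on the Cdh3 side, chr8:106570445-106571067 was called in no SmoM2 library and in every WT library. With 3 libraries against 3, no exact test of a single region can give p under 0.1, so these are descriptions.

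Among the other classical cadherins, Cdh2 rose and Cdh4 did not pass. N-cadherin's locus held 7, 4 and 5 regions in SmoM2, against 2, 2 and 2 in WT, with no overlap (log2 change 1.07, SE 0.19, adjusted p = 0.00812). Since the WT counts were equal, only list totals set their spread. The gene body (chr18:16588877-16809246) held 2, 2 and 2 regions in SmoM2, against 1, 2 and 2 in WT, so the difference lay in the flanks, which held 5, 2 and 3 against 1, 0 and 0. The 2 gained regions were 98166 bp (chr18:16490148-16491275) and 27476 bp (chr18:16560689-16562114) from the body. Counting regions within 20 kb ended the call (log2 change 0.41, adjusted p = 0.366), as did counting the body plus 1 kb (0.12, adjusted p = 0.59) and adding Y-linked signal to the model (0.92, adjusted p = 0.0598). Ptprc, the pan-leukocyte marker of the immune list, was also called higher, with 6, 1 and 2 regions in SmoM2, against 0, 0 and 0 in WT (adjusted p = 0.00751). With unnamed predicted genes left out, it was the tested locus most like Cdh2 across the 9 non-embryonic libraries (Pearson r = 0.977). Its part in the Cdh2 result was not tested.

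R-cadherin's locus varied more among WT libraries. Cdh4 held 15, 13 and 14 regions in SmoM2, against 7, 10 and 12 in WT, with no overlap (log2 change 0.42, SE 0.14, adjusted p = 0.101). Without WT replicate 3 the adjusted p was 0.0389 (log2 change 0.56), and with Y-linked intervals in the model it was 0.0353 (log2 change 0.63). These were the only 2 of 22 alternatives that called Cdh4. At −log10 q of at least 5 the log2 change was 0.083 (adjusted p = 0.8), and with equal list lengths 0.25 (adjusted p = 0.466). All 4 regions gained at Cdh4 lay in the body, between 245.3 and 435.5 kb from its lower end. The region over that end, chr2:179441985-179443817, was occupied in all 11 libraries.

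The type II genes went apart, with Cdh11 higher in SmoM2, Cdh6 not passing and Cdh7 nearly bare. Cdh11, a cadherin of mesenchymal cells, held 12, 11 and 9 regions in SmoM2, against 2, 3 and 2 in WT. Every SmoM2 library lay above every WT library (log2 change 1.87, SE 0.27, adjusted p = 0.00335). The body (chr8:102632095-102785493) held 7, 7 and 5 of these regions in SmoM2, against 1, 0 and 1 in WT. The call held in 21 of 22 alternatives, and at intervals with −log10 q of at least 5 the log2 change was 2.74 with an adjusted p of 0.0534.

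Of the 15 regions at Cdh11, 6 were gained in SmoM2, 4 of them inside the body. The highest ranked, chr8:102585843-102586679, lay 45834 bp outside and had a median percentile of 84.4 within the SmoM2 lists. Next came chr8:102691236-102691788 (49.6) and, outside the body, chr8:102558819-102559450 (31.4). The region over the high-coordinate end of the body, chr8:102783814-102785637, was called in 3 of 3 libraries of SmoM2 and in 2 of 3 of WT. The high-coordinate end was thus called open in most libraries of both groups.

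Cdh6 held 4, 6 and 3 regions in SmoM2, against 4, 5 and 3 in WT (log2 change -0.04, SE 0.30, adjusted p = 0.918), with full overlap. Cdh7, whose body spans 163036 bp, was bare in SmoM2 (0, 0 and 0 regions), and WT had 0, 1 and 0.

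Cdh13, the lipid-anchored cadherin, carried the most regions. It held 32, 35 and 42 in SmoM2, against 19, 19 and 18 in WT, with a wide gap between the groups (log2 change 0.81, SE 0.09, adjusted p = 0.00125). The call held in all 22 alternatives, with log2 changes of 0.60 to 0.93. Of its 53 regions, 52 lay in the body, which is 1184913 bp long (chr8:118140017-119324929), and no region overlapped either end of it. The 13 gained regions lay between 149.4 and 1022.9 kb from the lower end. The highest ranked were chr8:118383862-118384915, chr8:118374452-118375301 and chr8:118444294-118445305, at median percentiles of 70.3, 66.3 and 67.0 within the SmoM2 lists. The single lost region, chr8:118104359-118105096, lay 35290 bp outside and was occupied in 3 of 3 WT libraries, no SmoM2 or SmoM2-Sox9cKO library and Embryo replicate 1.

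**Figure D3:**
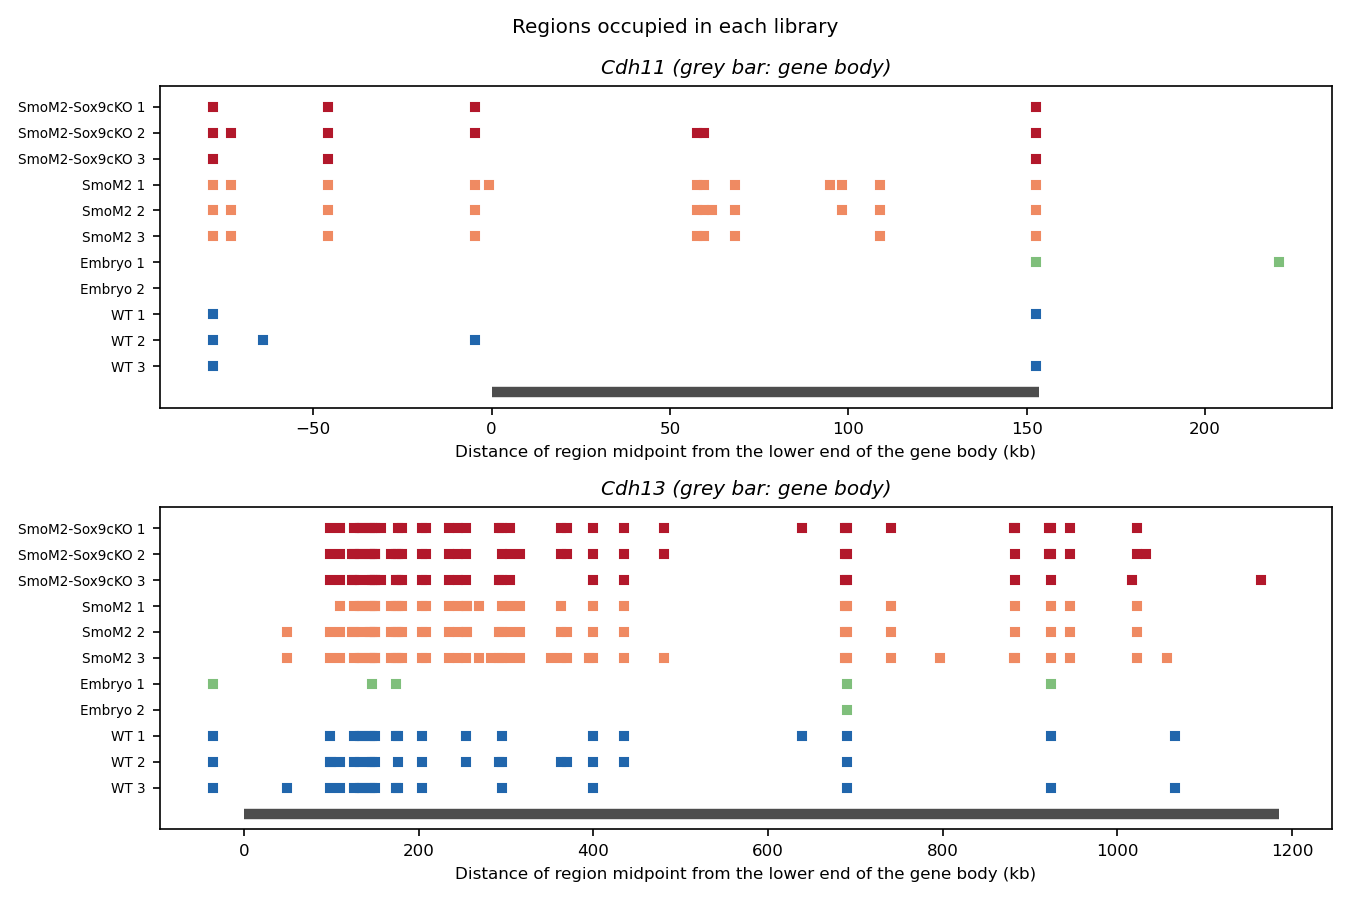
Regions occupied in each library at Cdh11 (top) and Cdh13 (bottom), by distance of the region midpoint from the lower end of the gene body in kb, with SmoM2-Sox9cKO rows at the top and WT rows at the bottom. Inside the Cdh11 body SmoM2 rows hold 5 to 7 squares and WT rows 0 or 1, and along Cdh13 the rows of SmoM2-Sox9cKO and SmoM2 are fuller than those of WT.

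Counted by region, 27 of the 146 cadherin regions were gained in SmoM2 (18.5%), beside 6.34% of all regions with a gene. Lost regions numbered 2 (1.37%), beside 3.03%. Cdh13 and Cdh11 held 19 of the 27, and regions of the same gene are not independent, so the share was not tested. Because the members were chosen with earlier results of these data known, the contrast with all regions is a description. Of the gained cadherin regions, 81.5% lay in a gene body, beside 78.8% of all cadherin regions, and of all gained regions with a gene 62.2% did. The gained cadherin regions had a median width of 747 bp, and the 36 cadherin regions occupied in all 9 non-embryonic libraries one of 1123.5 bp. At intervals with −log10 q of at least 5, 15 cadherin regions were gained, and with lists of equal length 16.

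**Figure D4:**
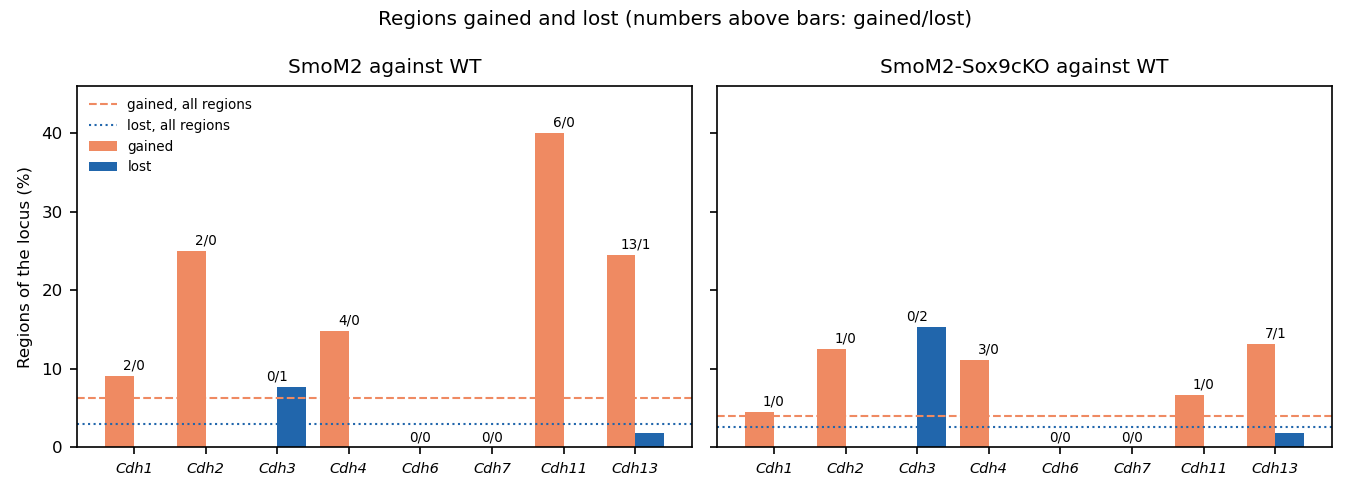
Share of each locus's regions (vertical axis, percent) gained or lost in SmoM2 (left) and SmoM2-Sox9cKO (right) against WT, with numbers of regions above the bars and the shares over all regions with a gene as dashed (gained) and dotted (lost) lines. In SmoM2, 40% of the Cdh11 regions and 24.5% of the Cdh13 regions were gained.

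The comparison of SmoM2-Sox9cKO with SmoM2 addresses what the floxed Sox9 allele changes in cells carrying SmoM2. At Sox9 itself, 10, 12 and 9 regions were occupied in SmoM2-Sox9cKO, against 9, 10 and 11 in SmoM2, a count of open sites that does not check the deletion. None of the 7 cadherin loci was called higher or lower by limma, with 0 higher and 1 lower at an unadjusted p under 0.05. Over all loci, 0.423% were called higher and 0.43% lower at an adjusted p under 0.05, which is no background for the unadjusted count. The locus with unadjusted p under 0.05 was Cdh11, which held 4, 7 and 3 regions in SmoM2-Sox9cKO, against 12, 11 and 9 in SmoM2. These groups did not overlap (log2 change -1.12, SE 0.27, adjusted p = 0.136). Without SmoM2-Sox9cKO replicate 2, which was nearest to the SmoM2 libraries, the log2 change was -1.44 (adjusted p = 0.0335). Only 2 of 22 alternatives called Cdh11 lower in this comparison. Over the 22 the log2 change ran from -1.76 to -0.91, and the adjusted p rose as high as 0.6. A batch or a strain that goes with SmoM2-Sox9cKO cannot be told apart from the Sox9 allele.

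The Cdh11 body accounted for most of that difference, with 1, 3 and 1 regions in SmoM2-Sox9cKO, against 7, 7 and 5 in SmoM2. Its flanks held 3, 4 and 2 against 5, 4 and 4. Regions chr8:102740344-102741314 and chr8:102700232-102700602, both in the body, were occupied in 0 of 3 SmoM2-Sox9cKO and 3 of 3 SmoM2 libraries. They were the 2 cadherin regions lost in this comparison (1.37%, beside 1.19% of all regions with a gene), and none was gained (beside 0.681%). Without SmoM2-Sox9cKO replicate 2, the number lost was 9, and without SmoM2 replicate 1 or 3 it was 4. Without SmoM2-Sox9cKO replicate 2 or 3 the number gained was 2 or 1. Leaving out a library loosens the rule for gained and lost regions, so these numbers could only stay or rise.

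The other loci differed less. Cdh13 held 34, 35 and 29 regions in SmoM2-Sox9cKO, against 32, 35 and 42 in SmoM2, with overlap (log2 change -0.09, SE 0.09, adjusted p = 0.803). Cdh2 held 4, 4 and 3 against 7, 4 and 5, also with overlap (log2 change -0.40, SE 0.19, adjusted p = 0.458). Cdh1 held 18, 18 and 16 against 17, 17 and 19, Cdh3 11, 10 and 10 against 11, 11 and 12, Cdh4 14, 14 and 15 against 15, 13 and 14, and Cdh6 4, 3 and 5 against 4, 6 and 3, with adjusted p of 0.803 or more. A p that misses the threshold does not show that these loci were alike.

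Of the 27 cadherin regions gained in SmoM2, 17, 24 and 13 were occupied in SmoM2-Sox9cKO replicates 1, 2 and 3. Over all regions with a gene that were gained in SmoM2, the shares were 74.5%, 76.8% and 52.7%. At Cdh11 the numbers were 1, 4 and 1 of 6, and at Cdh13 10, 12 and 8 of 13. The Cdh11 region occupied in all 3 SmoM2-Sox9cKO libraries was chr8:102585843-102586679, outside the body.

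Set against WT, SmoM2-Sox9cKO differed at fewer cadherin loci by the test than SmoM2 did, a count that is not a test of the difference. Both comparisons share the WT libraries. Cdh13 was called higher, with 34, 35 and 29 regions in SmoM2-Sox9cKO, against 19, 19 and 18 in WT (log2 change 0.73, SE 0.09, adjusted p = 0.00278). Over all loci, 3.99% (613) were called higher and 3.42% (525) lower, and with no scaling 508 and 261. Cdh11 held 4, 7 and 3 against 2, 3 and 2, which touched at 3 (log2 change 0.75, SE 0.27, adjusted p = 0.148).

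Cdh4 and Cdh2 came close to the threshold. Cdh4 held 14, 14 and 15 regions in SmoM2-Sox9cKO, against 7, 10 and 12 in WT (log2 change 0.51, SE 0.14, adjusted p = 0.0662). Without WT replicate 3 the adjusted p was 0.0263, but only 4 of 22 alternatives called the locus. Over them the log2 change fell as low as 0.18 and the adjusted p rose as high as 0.581. Cdh2 held 4, 4 and 3 against 2, 2 and 2 (log2 change 0.67, SE 0.19, adjusted p = 0.0672). Without SmoM2 replicate 1, which enters only through the shared spread, the adjusted p was 0.0244. Only 3 of 22 alternatives called Cdh2, with log2 changes as low as 0.18 and adjusted p as high as 0.714. Cdh1 (log2 change 0.20, adjusted p = 0.0869) and Cdh3 (-0.23, adjusted p = 0.165) did not pass. Cdh6 held 4, 3 and 5 against 4, 5 and 3 and did not pass (adjusted p = 0.876).

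By region, 13 of 146 were gained in SmoM2-Sox9cKO against WT (8.9%, beside 4.04% of all regions with a gene) and 3 were lost (2.05%, beside 2.58%). Under the looser rule that leaving out a library brings, 20 were gained without SmoM2-Sox9cKO replicate 3, and 5 were lost without WT replicate 2. Cdh13 held 7 of the gained regions, Cdh4 3, and Cdh1, Cdh2 and Cdh11 1 each. These shares are descriptions too, since the members were chosen with earlier results of these data known. Of the lost regions, 2 flanked Cdh3, chr8:106570445-106571067 and chr8:106499891-106500357. The first was also empty in all SmoM2 libraries, while the second was occupied in 2 of 3 of them.

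**Figure D5:**
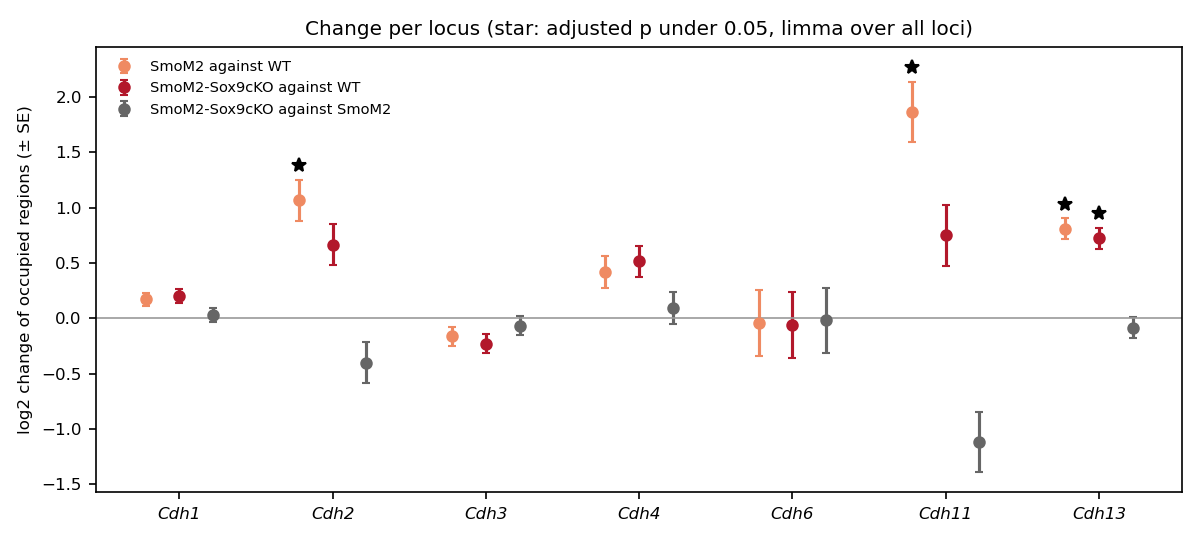
Log2 change of occupied regions (± SE) at the 7 tested cadherin loci in 3 comparisons, with stars where the adjusted p was under 0.05. Stars stand over Cdh2, Cdh11 and Cdh13 for SmoM2 against WT and over Cdh13 for SmoM2-Sox9cKO against WT, and the lowest value is Cdh11 in SmoM2-Sox9cKO against SmoM2, at -1.12.

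In the embryonic esophagus few cadherin regions were called open. Embryo libraries occupied 25 and 11 of the 146, and 17.1% were occupied in at least 1 of them, beside 21.8% of all regions with a gene. The Embryo lists were much shorter than the others, so absence there was not read as closed chromatin. Cdh1 held 4 and 4 regions and Cdh3 5 and 2. Cdh13 held 5 and 1, Cdh4 3 and 1, and Cdh2 and Cdh11 2 and 0 each. Cdh6 held 4 and 3 in Embryo, within the range of 3 to 6 over the other 9 libraries despite the short lists. Its region chr15:13002795-13004197, 25203 bp outside the body, was occupied in both Embryo libraries and in none of the 9 others. A second region, chr15:13046839-13047514 in the body, was occupied in both Embryo libraries, SmoM2-Sox9cKO replicate 3 and SmoM2 replicate 2. Of the 27 regions gained in SmoM2, 1 (3.7%) was occupied in each Embryo library, the Cdh1 region inside the body named above, beside 4.24% and 1.62% of all gained regions with a gene.

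Loci of other cadherins, of desmosomes and of cadherin partners were read with the same test. Of 15 other cadherin genes, 11 were tested in SmoM2 against WT, and 2 were higher and 1 lower, beside 5.2% higher and 5.75% lower over all loci. VE-cadherin (Cdh5), of endothelial junctions, held 7, 6 and 7 regions in SmoM2, against 3, 4 and 4 in WT (log2 change 0.67, adjusted p = 0.00429), and Cdh12 23, 19 and 22 against 14, 16 and 12 (0.47, adjusted p = 0.0454). Cdh5 was also higher in SmoM2-Sox9cKO against WT, with 7, 7 and 6 regions in SmoM2-Sox9cKO, against 3, 4 and 4 in WT (log2 change 0.73, adjusted p = 0.00363), and it and Cdh19 were the 2 of the 11 called, beside 3.99% higher and 3.42% lower over all loci. Of the 10 endothelial marker loci, 3 were higher and 0 lower in SmoM2-Sox9cKO against WT, and 2 were higher and 1 lower in SmoM2 against WT. Their part in the Cdh5 result was not tested. Cdh19, known from Schwann cell precursors, held 0 regions in every SmoM2-Sox9cKO and SmoM2 library, against 5, 5 and 4 in WT (adjusted p = 5.88e-07 for SmoM2-Sox9cKO against WT and 6.69e-07 for SmoM2 against WT). In SmoM2 against WT, none of the 9 desmosomal cadherin genes passed in limma, beside 5.2% higher and 5.75% lower over all loci. At an unadjusted p under 0.05, 1 was higher and 1 lower, for which no share over all loci was taken.

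The 21 cadherin partners include the catenins, plaque proteins, the nectins and the nectin linker afadin. Of these, 5 were higher and 2 lower in SmoM2 against WT, beside 5.2% and 5.75% of all loci. The strongest changes were at catenins of neural tissue. Ctnna2 held 26, 21 and 31 regions in SmoM2, against 3, 3 and 3 in WT (log2 change 2.78, adjusted p = 3.54e-05). Ctnnd2 held 5, 4 and 5 in SmoM2, against 15, 20 and 19 in WT (log2 change -1.96, adjusted p = 2.16e-05). Ctnna3, a catenin of heart muscle, was higher (0.77) and Arvcf lower (-0.81). Ctnna1, Afdn and Pkp4 complete the count and were named after their values were seen. In SmoM2-Sox9cKO against SmoM2 limma called none of the 21 (beside 0.423% higher and 0.43% lower over all loci). At an unadjusted p under 0.05, 1 was higher and 0 lower, for which no share over all loci was taken. In SmoM2-Sox9cKO against WT, 3 were higher and 2 lower, beside 3.99% and 3.42% of all loci, with Ctnna2 at 2.50 (adjusted p = 8.24e-05) and Ctnnd2 at -1.49 (adjusted p = 0.000136) on the log2 scale.

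Of 8 genes for transcription factors that repress Cdh1 or partner with such repressors, 3 were called higher in SmoM2 against WT and none lower. Over all loci, 5.2% were called higher and 5.75% lower. At an unadjusted limma p under 0.05, 1 of the 8 was lower, for which no share over all loci was taken. The 3 called higher were Twist2 (6, 6 and 7 regions in SmoM2, against 0, 1 and 1 in WT, adjusted p = 0.00222), Zeb2 (20, 18 and 20 against 5, 10 and 7, adjusted p = 0.00524) and Tcf4 (27, 22 and 25 against 12, 12 and 13, adjusted p = 0.00282). Twist2 also stands in the fibroblast list, in which it was the only gene higher and Dpt and Tbx15 were lower. In SmoM2-Sox9cKO against WT, Twist2 (log2 change 2.57, adjusted p = 0.0029) and Zeb2 (0.85, adjusted p = 0.0373) were higher and Twist1 was lower, with 1, 1 and 1 regions in SmoM2-Sox9cKO, against 3, 3 and 2 in WT (-1.12, adjusted p = 0.0344), beside 3.99% higher and 3.42% lower over all loci. In SmoM2-Sox9cKO against SmoM2 none of the 8 was called by limma (beside 0.423% higher and 0.43% lower over all loci). At an unadjusted p under 0.05, 1 was higher and 1 lower, again without a share over all loci. The lists were drawn up with earlier results of these data known, so their counts are descriptions. In SmoM2 against WT, the median log2 change was 0.30 over the 8 genes, 0.02 over the 21 partners, -0.08 over the 11 other cadherins and -0.12 over the 9 desmosomal genes, beside -0.12 over all loci.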

How the data were processed

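Each library was one list of intervals in the 10-column narrowPeak layout. Per the submitters' processing notes the authors used Trimmomatic, Bowtie2, Picard, MACS2 and deepTools with GRCm38/mm10; no version of any of them is stated in these notes. The deposited values are a score, a fold enrichment, a −log10 p-value, a −log10 q-value (lowest 1.3) and a summit position; no printed result rests on the score, fold or summit. Lines repeating an interval were merged, chromosomes 1 to 19 and X kept, and all lists merged into regions (median width 693 bp). Regions went to the nearest of 21631 protein-coding gene bodies of the RefSeq GRCm38.p6 table within 100 kb, the shortest where bodies overlapped. Coordinates are 1-based. Percentiles rank an interval by the authors' −log10 p within its own list.

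Loci averaging 1 or more occupied regions over the 9 non-embryonic libraries (15365) were tested with limma 3.58.1 (R 4.3.3, trend on) on log2((regions + 0.5)/(total + 1) × 100000), with Benjamini-Hochberg adjustment at 0.05. Adjusted p-values are from this fit. A region was gained where all libraries of the first group and none of the second occupied it, and lost in the reverse case. Members and lists were chosen with earlier results of these data known. Named regions were the highest ranked by median rank; named list genes were the called ones, up to 4 by absolute change. The steps were tested on simulated data. Alternatives are listed in the closing section. One result of the likeness search is not reported here.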

Additional observations from a re-analysis of the deposited data

How the results depend on the processing

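Over the 22 alternatives the higher calls at Cdh13 held in both comparisons with WT (22 of 22 each), that at Cdh11 in SmoM2 against WT in 21 and that at Cdh2 in 19. The causes of the changes below were not tested. Deviations from group means correlated little between same-numbered libraries (r from -0.0672 to 0.0802), which does not show that they were unpaired. The labels give the numbers no shared source. With the replicate block, 37 loci were higher and 38 lower in SmoM2-Sox9cKO against SmoM2, with 1 cadherin locus lower (Cdh11, -1.12, adjusted p = 0.0486), and 2 cadherin loci were higher in SmoM2-Sox9cKO against WT.

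Of all loci in SmoM2 against WT, 1275 were higher and 1499 lower by covered base pairs, 392 and 335 with Y-linked intervals as covariate, 560 were lower with the gene body plus 1 kb, and 341 with no scaling. In SmoM2-Sox9cKO against SmoM2, higher and lower loci numbered 17 and 24 at −log10 q of at least 5, 100 and 115 by base pairs, 102 and 122 with no filter, 32 and 23 at a mean of at least 3 regions and 13 and 21 with the Y covariate, and 29 were lower with only the 6 libraries compared. In SmoM2-Sox9cKO against WT they numbered 396 and 301 with the body plus 1 kb and 1047 and 1072 by base pairs, and 261 were lower with no scaling. There, 2 cadherin loci were higher by base pairs, with only the 6 libraries and with the Y covariate, 3 at a mean of at least 3 regions, and 1 was lower at −log10 q of at least 5 (Cdh6, -1.10, adjusted p = 0.00781).

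Gained and lost cadherin regions in SmoM2 against WT were 15 gained at −log10 q of at least 5 and 16 with equal list lengths, and 5 lost when 2 of 3 libraries sufficed and 4 with 50% overlap. In SmoM2-Sox9cKO against SmoM2, 1 was gained and 1 lost at −log10 q of at least 5 and with equal lengths, 3 and 7 when 2 of 3 sufficed, and 2 were gained with 50% overlap. In SmoM2-Sox9cKO against WT, 6 were gained at −log10 q of at least 5, and 25 gained and 6 lost when 2 of 3 sufficed. Embryo replicates 1 and 2 occupied 14 and 5 at −log10 q of at least 5 and 13 and 4 with 50% overlap.

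Leaving out 1 library at a time gave, in SmoM2 against WT, 3 to 4 cadherin loci higher, 562 to 856 loci higher and 537 (without WT replicate 3) to 844 lower (548 without SmoM2 replicate 1), 27 to 31 regions gained and 2 to 4 lost (4 without WT replicate 2). In SmoM2-Sox9cKO against SmoM2 it gave 0 to 1 cadherin loci lower, 8 (without SmoM2-Sox9cKO replicate 3) to 107 loci higher (without SmoM2 replicate 3; 13 without SmoM2 replicate 1, 27 without SmoM2 replicate 2), 20 (without SmoM2 replicate 1, SmoM2 replicate 2 or SmoM2-Sox9cKO replicate 3) to 71 lower (42 without WT replicate 2, 41 without WT replicate 3), 0 to 2 regions gained and 2 to 9 lost. In SmoM2-Sox9cKO against WT it gave 1 to 2 cadherin loci higher (2 without WT replicate 3 or SmoM2 replicate 1), 421 to 598 loci higher, 337 (without SmoM2-Sox9cKO replicate 2) to 523 lower (344 without WT replicate 2), 13 to 20 regions gained and 3 to 5 lost. The numbers of gained and lost regions could only stay or rise, since the rule then asked for fewer libraries.

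Uncalled log2 changes that turned sign were, in SmoM2 against WT, Cdh3 (0.13, body plus 1 kb) and Cdh6 (0.65 within 20 kb and with the body plus 1 kb, 0.080 with no scaling, 0.079 with the Y covariate). In SmoM2-Sox9cKO against SmoM2 they were Cdh1 (-0.027 with no scaling), Cdh2 (0.061, body plus 1 kb), Cdh3 (0.040 at −log10 q of at least 5, 0.070 by base pairs), Cdh4 (-0.011, Y covariate), Cdh6 (0.061 within 20 kb and with the body plus 1 kb) and Cdh13 (0.070 at −log10 q of at least 5, 0.15 with equal lengths). In SmoM2-Sox9cKO against WT they were Cdh3 (0.11, body plus 1 kb; 0.022, base pairs) and Cdh6 (0.71 within 20 kb and with the body plus 1 kb). With 1 library left out, the log2 change of Cdh6 ran from -0.33 to 0.23 in SmoM2 against WT, from -0.29 to 0.26 in SmoM2-Sox9cKO against SmoM2 and from -0.25 to 0.094 in SmoM2-Sox9cKO against WT, and that of Cdh1 in SmoM2-Sox9cKO against SmoM2 from -0.0069 to 0.055.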

Other observations

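Regions called in few libraries were narrow. Of the 146 cadherin regions, 28 were occupied in exactly 1 of the 9 non-embryonic libraries (19.2%, beside 16.2% of all regions with a gene), with a median width of 265.5 bp against 1123.5 bp for the 36 occupied in all 9. Over all regions with a gene the medians were 284 and 1139 bp, so the cadherin widths lay near the background, and regions are unions of the lists' intervals, which widen as more libraries contribute. Cdh4 and Cdh13 held 9 each of these narrow regions, Cdh11 4, Cdh1 3, Cdh2 2 and Cdh7 1, while Cdh3 and Cdh6 held none. Regions occupied in all 9 made up 69.2% of the Cdh3 regions and 40.9% of the Cdh1 regions, beside 37.0% of all regions with a gene, 17.0% at Cdh13 and 6.67% at Cdh11.

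Across the 9 non-embryonic libraries, loci whose scaled counts followed Cdh11 closely included Stpg2 (Pearson r = 0.974) and Pdgfd (0.97). Pdgfd, a platelet-derived growth factor, held 1, 6 and 0 regions in SmoM2-Sox9cKO, 15, 10 and 12 in SmoM2 and 0, 0 and 0 in WT. There SmoM2-Sox9cKO replicate 2 was the highest of its group, as at Cdh11. The loci nearest to Cdh13 were Zdhhc14 (0.985), Col14a1 (0.983) and Hsd3b1 (0.98), and those nearest to Cdh2 were Ptprc (0.977), the pan-leukocyte marker of the immune list, Peak1 (0.97) and Exoc4 (0.969). All of these are among the 3 highest of the tested loci for their gene, with unnamed predicted genes left out. The libraries fall into groups, and the values are descriptions.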
